A study of Mus musculus with 11 samples.

Results

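The regions described here are promoter peaks, the ATAC-seq peaks that the authors annotated as promoter-TSS and that lie within 1000 bases of a transcription start site. They number 7270 of the 45508 peaks in the deposited table (16%) and are assigned to 6938 genes. ATAC-seq marks open chromatin through Tn5, a transposase that inserts sequencing adapters where DNA is not wrapped in nucleosomes. The spleens and lymph nodes of untreated mice gave the naive CD4 T cells, which were negative for a red Foxp3 reporter and low for CD44. All mice carried the transgene Tg(Nr4a1-EGFP)GY139Gsat, a bacterial artificial chromosome in which the regulatory DNA of Nr4a1 (Nur77) drives green fluorescent protein, together with the reporter allele Foxp3tm1Flv, on a C57/BL6 background, so that no library came from mice without the reporters. Age is not among the labels. Population A was low for the Nur77 reporter and positive for Ly6C (n = 2), B was intermediate and Ly6C positive (n = 3), C was intermediate and Ly6C negative (n = 3), and D was high and Ly6C negative (n = 3). The number of a library is the number of its mouse, and A was analysed from mice 1 and 3 only. Each of the 11 libraries was made from 10000 cells.

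Nr4a1 is an immediate early gene of T cell receptor signalling, and in resting naive T cells its reporter is read as a record of recent signalling through self ligands. Active promoters keep a nucleosome-free stretch just upstream of the start site. Promoters rich in CG dinucleotides are usually open in most cell types whether or not the gene is strongly transcribed, and promoters poor in CG tend to open only in the cells that use the gene. Values are in rppm, reads scaled to a common total whose definition the table does not give. A bulk value cannot tell a promoter that is open in more cells from one that is more open in each cell.

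The promoters on which the results turn are shown here as the 250 bases before the start site, 5′ to 3′ along the gene, with every CG dinucleotide in capitals. They come from RefSeq on GRCm38.p6, the assembly of the mm10 coordinates. Lims1 has 2 promoters of opposite composition, of which the upstream one was not called in any comparison and the downstream one was higher in D. The upstream window (chr10:58323297-58323546, plus strand) holds 28 CG in 250 bases, and the downstream window (chr10:58351713-58351962, plus strand) holds 1.
Lims1 upstream: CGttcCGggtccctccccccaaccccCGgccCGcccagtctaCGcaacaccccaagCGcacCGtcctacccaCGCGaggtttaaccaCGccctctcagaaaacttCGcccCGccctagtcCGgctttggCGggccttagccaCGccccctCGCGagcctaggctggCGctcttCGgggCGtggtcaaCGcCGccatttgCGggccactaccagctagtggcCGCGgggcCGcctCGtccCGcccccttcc
Lims1 downstream: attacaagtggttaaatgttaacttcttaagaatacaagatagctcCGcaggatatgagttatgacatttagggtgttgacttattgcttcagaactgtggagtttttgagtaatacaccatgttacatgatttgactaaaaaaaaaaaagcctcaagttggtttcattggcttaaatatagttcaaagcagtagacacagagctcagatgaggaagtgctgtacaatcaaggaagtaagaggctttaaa

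The windows of Itgb8 (chr12:119238277-119238526, minus strand; 12 CG), Tnfrsf4 (chr4:156013445-156013694, plus strand; 5 CG), Tnfrsf9 (chr4:150927749-150927998, plus strand; 4 CG) and Ctla4 (chr1:60908775-60909024, plus strand; 7 CG) belong to promoters that were higher in D than in A. The window of Ly6c1 (chr15:75048838-75049087, minus strand; 1 CG) belongs to a promoter that was lower in D.
Itgb8: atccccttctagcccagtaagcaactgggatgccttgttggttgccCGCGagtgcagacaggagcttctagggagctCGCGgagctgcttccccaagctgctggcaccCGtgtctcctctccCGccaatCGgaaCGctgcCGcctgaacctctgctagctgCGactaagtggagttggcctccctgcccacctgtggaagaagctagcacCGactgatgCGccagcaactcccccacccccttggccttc
Tnfrsf4: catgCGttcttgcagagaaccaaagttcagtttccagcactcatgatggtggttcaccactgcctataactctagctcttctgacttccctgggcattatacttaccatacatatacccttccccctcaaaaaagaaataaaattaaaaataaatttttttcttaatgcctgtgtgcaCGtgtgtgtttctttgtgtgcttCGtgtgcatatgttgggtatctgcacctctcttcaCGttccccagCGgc
Tnfrsf9: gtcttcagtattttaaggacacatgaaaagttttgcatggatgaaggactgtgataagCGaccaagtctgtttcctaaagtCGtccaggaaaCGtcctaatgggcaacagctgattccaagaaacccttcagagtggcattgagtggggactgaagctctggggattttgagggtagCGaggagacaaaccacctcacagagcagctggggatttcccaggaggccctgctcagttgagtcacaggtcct
Ctla4: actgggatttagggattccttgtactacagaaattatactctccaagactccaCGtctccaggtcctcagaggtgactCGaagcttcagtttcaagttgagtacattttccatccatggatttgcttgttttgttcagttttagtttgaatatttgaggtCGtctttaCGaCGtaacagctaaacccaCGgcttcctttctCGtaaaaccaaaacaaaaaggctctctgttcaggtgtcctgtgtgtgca
Ly6c1: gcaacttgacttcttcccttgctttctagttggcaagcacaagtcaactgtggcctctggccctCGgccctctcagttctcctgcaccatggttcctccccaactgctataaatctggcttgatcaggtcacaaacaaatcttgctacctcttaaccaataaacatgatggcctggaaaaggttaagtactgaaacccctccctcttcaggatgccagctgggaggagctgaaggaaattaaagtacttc

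For comparison, the median was 18 CG over the 5462 windows that matched a promoter peak by gene and position, and 6 over all 32851 RefSeq windows. The 7 windows were searched for 3 motifs on both strands. The AP-1 motif TGANTCA, present in 6.75% of all windows, matched in the Tnfrsf9 window alone, 15 bases before the start. The NF-kB motif GGGANNNCC, present in 15.8% of all windows, also matched only there, at 2 overlapping positions, the first 42 bases before the start. The NBRE AAAGGTCA, a motif of Nr4a factors that 1.34% of all windows hold, matched in none of the 7. A match is a string of letters and not a measured binding site. A comparison of CG content or motifs between promoters that changed and those that did not is void here. Only 75.1% of promoter peaks, 64.1% of those higher in D and 53.0% of those lower had a matched window, and 80% is the least share used for such a comparison.

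Of the 6938 genes, 6659 had 1 promoter peak, 242 had 2 and 37 had 3 or more. The authors' distances to the start ran from 1000 bases upstream to 869 bases downstream, with a median of 28 bases upstream, and 76.8% were within 200 bases. No promoter-TSS peak of the table lay beyond the limit of 1000 bases, so the distance rule removed none. A further 4936 peaks within 1000 bases of a start carry another annotation, such as first intron or exon, and are not counted as promoter peaks. The promoter peaks had a median width of 1180 bases, against 702 for the other peaks. Their level was also higher, with a median of 40.3 rppm over the 11 libraries against 8.30 for the other peaks, and 74.4% reached 20 rppm against 22.7%. None was at 0 in any library. The highest means belonged to 2 peaks of Rn4.5s and to Sp1, 5031425E22Rik and Cep57, of which Sp1 encodes a zinc finger factor that binds GC boxes. Rn4.5s is a repeated small RNA gene, so its reads may be shared among copies.

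The totals behind the rppm values are not given and were estimated from the fitted size of 1 read. They ran from 2597176 to 36859229 reads, with the shallowest and the deepest library both in D. A peak at 10 rppm therefore rested on 26 to 369 reads. T cell identity was visible at the promoters of Cd3e, Cd3d, Cd3g, Lck, Cd28, Tcf7, Bcl11b and Cd4, none of which was called in D against A. Cd3e, a subunit of the T cell receptor complex, averaged 52.1 ± 10.2 rppm in D and 55.03 ± 1.23 rppm in A (SD, n = 3 and 2). Among the genes used for the sort, Nr4a1, Ly6c2, Cd44 and Foxp3 had no peak annotated as a promoter. Cd4 averaged 12.7 ± 1.9 rppm in D and 13.4 ± 0.1 rppm in A.

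The share of reads in promoters was compared first. In A the promoter peaks took 34.8 and 35.5% of all listed reads, in B 34.9, 34.6 and 34.4%, in C 34.7, 35.1 and 33.8%, and in D 34.8, 34.9 and 33.6%. The populations overlapped. Across the order A, B, C, D the share changed by -0.22 percentage points per population (exact permutation over libraries, two-sided p = 0.172). Permuting within mice gave -0.25 points (exact permutation p = 0.0839). D minus A was -0.74 points (exact permutation p = 0.5, where the smallest p that 3 against 2 allows is 0.1). Without mouse 3 the slope was 0.016 points, so the downward slope rests on the libraries of that mouse. In mouse 3 the estimated read totals rose from 9933354 in A to 36859229 in D. In mouse 1 they fell from 9194084 in A to 2597176 in D. Whether depth entered the slope was not tested.

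Few promoters differed between D and A. Called means an adjusted p below 0.05, by limma on log2(rppm + 1) with Benjamini-Hochberg adjustment over all 45508 peaks. Of 7270 promoter peaks 261 (3.59%) were called, against 12.4% of all peaks. Higher in D were 195 (2.68%), against 8.7% of all peaks, and lower were 66 (0.908%), against 3.74%. Among the peaks that are not promoter peaks 14.1% were called. The median log2 change over all promoter peaks was -0.068, and over all peaks -0.042. The median absolute change was 0.11 for promoter peaks and 0.21 for the others. In 592 promoter peaks (8.14%) every D library was above both A libraries, against 19.3% of all peaks, and in 1053 (14.5%) every D library was below them, against 18%.

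The model with the mouse as a block called more. It gave 905 promoter peaks in D against A (12.4%), 311 higher (4.28%) and 594 lower (8.17%). Of all peaks it called 21.2%, 12.5% higher and 8.79% lower. For lower calls the 2 shares were thus close with the block, where without it they were 0.908% and 3.74%. All 195 higher and all 66 lower promoter peaks called without the block were among the 905. The 594 lower ones had a median log2 change of -0.36, a median level of 38.1 rppm, and 118 with a change of over 0.5. For the 528 that only the blocked model called lower, the median log2 difference D minus A was -0.49 in mouse 1 and -0.26 in mouse 3. Without mouse 3 the blocked model called 209 promoter peaks, 98 higher and 111 lower, against 8.03% of all peaks. The number of calls also depended on the libraries. Leaving out library 1 or library 3 of A left 118 in each case (1.62%), against 6.84% and 6.44% of all peaks, and leaving out mouse 3 altogether, with 1 A library remaining, left 31 promoter peaks, 30 of them higher, against 2.25% of all peaks. With reads thinned to the shallowest library 110 were called (1.51%), against 5.96% of all peaks.

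The shares of promoter and other peaks called were set side by side within classes of level. At a mean under 5 rppm, 16.2% of promoter peaks and 18.02% of other peaks were called higher in D. From 5 to 10 rppm these shares were 9.91% and 9.18%. From 20 to 50 rppm, the class holding 35.3% of the promoter peaks, they were 0.779% and 3.97%, and at 50 rppm and more they were 0.211% and 0.596%. For lower calls the promoter share was the smaller one in each of the 5 classes, at 2.42% against 3.603% under 5 rppm and 0.282% against 2.27% at 50 rppm and more. The classes were not tested against each other. By position, 4.66% of promoter peaks lying 500 to 1000 bases upstream were called higher, 2.34% of those within 50 bases of the start, and 1.60% of those 51 to 200 bases downstream. Of all peaks 8.7% were called higher, and of other peaks 51 to 200 bases downstream 2.59%. Lower calls took 3.18%, 0.478% and 0.8% of the same 3 classes of promoter peaks, against 3.74% of all peaks. Position was not separated from level.

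**Figure D1:**
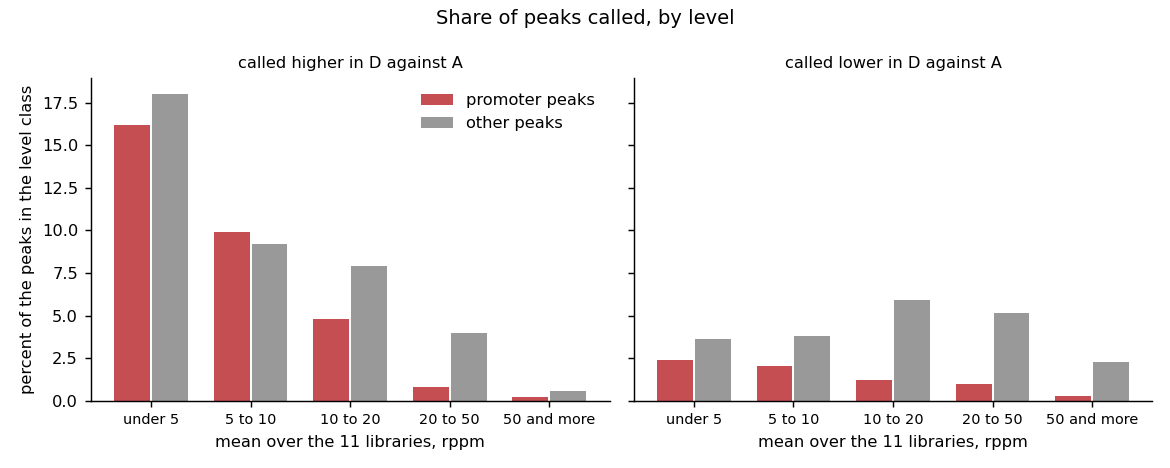
Percent of promoter peaks (red) and of other peaks (grey) called higher (left) or lower (right) in D against A, within 5 classes of mean level in rppm. The red and grey bars for higher calls are close under 10 rppm and far apart from 20 to 50 rppm (0.779% and 3.97%).

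**Figure D2:**
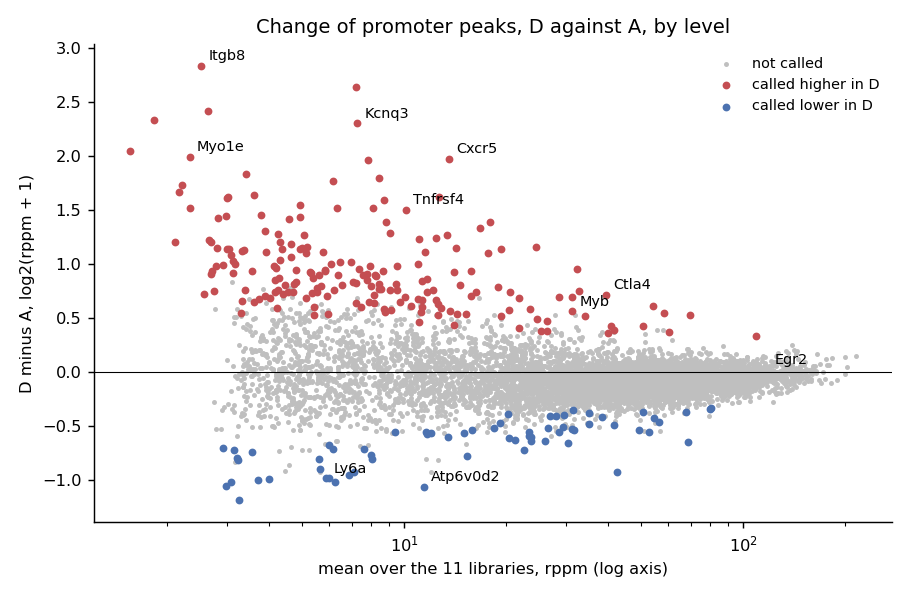
Log2 change of each of the 7270 promoter peaks, D minus A on log2(rppm + 1), against its mean over the 11 libraries (log axis), with called peaks in colour. The 195 higher peaks (red) lie mostly at low levels and reach a log2 change of 2.84, and the 66 lower peaks (blue) stay above -2.

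The 195 higher promoter peaks, each of a different gene, had a median log2 change of 0.87. In 67 it was at least 1 and in 6 at least 2. The 66 lower peaks, of 64 genes, had a median of -0.60, with 6 at or below -1 and none at or below -2. Among these called peaks the step from C to D had the largest median. For the higher peaks the median log2 step was 0.16 from A to B, 0.19 from B to C and 0.47 from C to D, and the last step was the largest in 143 of 195. For the lower peaks the medians were -0.12, -0.13 and -0.34, and the last step was the largest in 50 of 66. The population means ran in one direction through A, B, C and D in 149 of the 195 and in 56 of the 66. These peaks were chosen by D against A in the same libraries, which can enlarge the steps that include A or D. The steps and the order therefore describe the called peaks only.

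**Figure D3:**
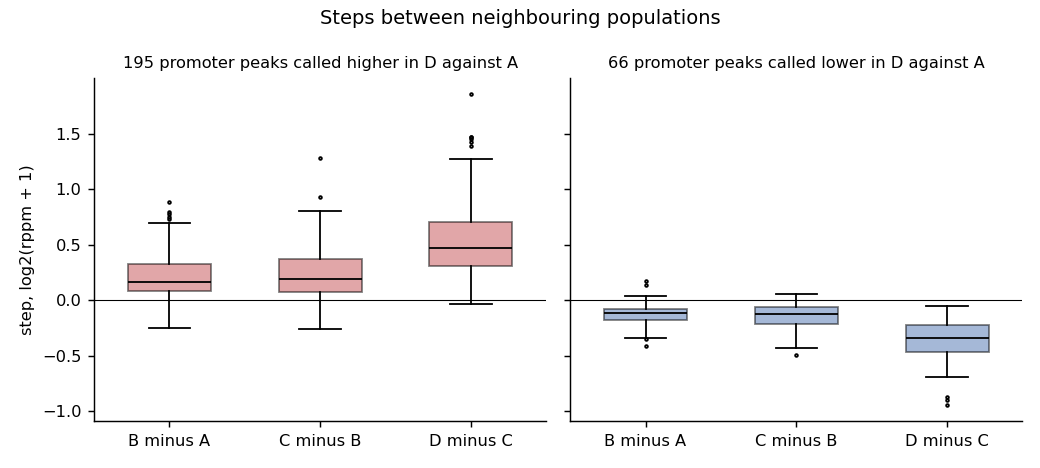
Log2 steps between neighbouring populations, on log2(rppm + 1), for the 195 promoter peaks called higher (left) and the 66 called lower (right) in D against A; boxes give the quartiles, the line the median and whiskers reach to 1.5 times the box. The D minus C step is the largest, with medians of 0.47 and -0.34.

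Tested step by step, D against C gave 85 promoter peaks (1.17%), 73 higher (1.00%) and 12 lower (0.165%). Of all peaks it called 6%, 4.51% higher and 1.49% lower. With the mouse as a block D against C gave 215, against 11.4% of all peaks, and without mouse 3 it gave 7, against 0.888% of all peaks. Leaving out library 1 of C gave 51, against 4.25% of all peaks, and leaving out library 2 of C gave 55, against 3.95%. B against A gave no promoter peak, against 0% of all peaks, with 58 at an unadjusted p below 0.05. There the blocked model and DESeq2 each called 1 promoter peak (0.0138%), that of A530021J07Rik, and edgeR called none. Of all peaks the blocked model called 0.0593% and DESeq2 0.0176%. C against B, which share the reporter level and differ in Ly6C, gave no promoter peak, against 0.0022% of all peaks, with 86 at an unadjusted p below 0.05. There the blocked model called 4 promoter peaks (Tnfrsf4, Ttc39c, Prelid2 and Dhrs3), against 0.193% of all peaks. DESeq2 called the same 4, against 0.189% of all peaks, and edgeR called Tnfrsf4, Ttc39c, Dhrs3 and Glt28d2, against 0.147%. In each fit the 4 are 0.055% of the promoter peaks. These few were named after their values were seen.

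The named higher promoters included those of several receptors and adhesion molecules. Itgb8 encodes the integrin subunit that activates latent TGF-beta. Its promoter peak (chr12:119237858-119239075) had 0.109 and 0.201 rppm in A, 0.557, 0.801 and 0.279 in B, 1.37, 1.34 and 1.14 in C, and 8.09, 6.25 and 7.57 in D. The A values rest on 1 and 2 reads, against 21, 43 and 279 reads in D. Each D library was above every other library, and the log2 change from A to D was 2.84 ± 0.18 (SE, adjusted p = 7.76e-07). Cxcr5, the chemokine receptor that leads T cells into B cell follicles, had 5.11 and 5.64 rppm in A, 7.68, 12.9 and 10.2 in B, 8.83, 13.6 and 12.3 in C, and 20.0, 23.4 and 29.8 in D. B and C overlapped there, and D stood above all others, with a log2 change from A of 1.98 ± 0.22 (adjusted p = 4.12e-05). Nrp2, a receptor for semaphorins and VEGF, averaged 6.78 ± 1.86 rppm in D and 1.14 ± 0.23 rppm in A. Kcnq3, a subunit of a voltage-gated potassium channel, had 15.02, 15.1 and 14.8 rppm in D and 1.74 and 2.82 rppm in A, with B and C in between at 4.15 to 6.17 rppm. Myo1e, a class I myosin, averaged 5.51 ± 0.59 rppm in D and 0.628 ± 0.035 rppm in A, and C and B lay at 1.35 ± 0.15 and 1.26 ± 0.07 rppm, so the largest step lay between C and D (log2 step 1.47, adjusted p = 3.93e-05).

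The TNF receptor superfamily has members that give costimulatory signals to activated T cells. Its members Tnfrsf4, Tnfrsf8 and Tnfrsf9 were called higher in D and moved in different steps. Tnfrsf18 was not called, with 20.6 rppm in D and 17.5 rppm in A (log2 0.22, adjusted p = 0.457), and Tnfrsf19 was lower. Tnfrsf4 (OX40) had 4.02 and 5.44 rppm in A, 6.24, 6.41 and 5.83 in B, 12.2, 13.4 and 12.3 in C, and 14.2, 14.5 and 16.7 in D. Its libraries thus fall into a lower range in A and B and a higher range in C and D. The D minus C step was 0.25 (adjusted p = 0.402) and the C minus B step 0.93, which missed the threshold without a block (adjusted p = 0.06997) and passed it with the mouse as a block (adjusted p = 0.0119). Over the 27 alternatives the adjusted p of that step ran from 3.02e-05 to 1.00, the highest without mouse 3, and 6 of them called it. Tnfrsf8 (CD30) showed the other form. It had 2.17 and 2.11 rppm in A, 2.45, 2.52 and 2.31 in B, 1.77, 2.16 and 3.04 in C, and 9.24, 6.98 and 6.81 in D, so both A libraries lay below those of B, C overlapped with each of them, and D stood apart (D minus C, log2 1.39 ± 0.19, adjusted p = 0.00024). Tnfrsf9 (4-1BB) averaged 17.2 ± 2.3 rppm in D and 7.44 ± 1.30 rppm in A (log2 1.11 ± 0.21, adjusted p = 0.00244). Tnfrsf9 was not called without A replicate 1 or without mouse 3.

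Signalling and metabolic genes completed the higher group. Rgs16, which shortens signals of G protein-coupled receptors, averaged 11.9 ± 2.6 rppm in D and 2.76 ± 0.51 rppm in A. Arhgap20, a GTPase-activating protein, averaged 24.1 ± 7.9 rppm in D and 7.14 ± 2.71 rppm in A. Mgll, the lipase of monoacylglycerols, averaged 13.3 ± 3.3 rppm in D and 3.11 ± 1.02 rppm in A, and its D minus C step alone was not called (log2 0.43, adjusted p = 0.36). Slc39a2, a zinc importer, and Ispd, an enzyme of dystroglycan glycosylation, had log2 changes of 1.55 and 1.52. Ttc39c (6.24 ± 2.07 rppm in D and 0.314 ± 0.017 rppm in A) and Arfgef3 (5.53 ± 0.35 rppm in D and 1.23 ± 0.88 rppm in A) were also among the 15 named higher promoters. Of these 15, Arfgef3 lost its call under 1 alternative, without mouse 3.

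**Figure D4:**
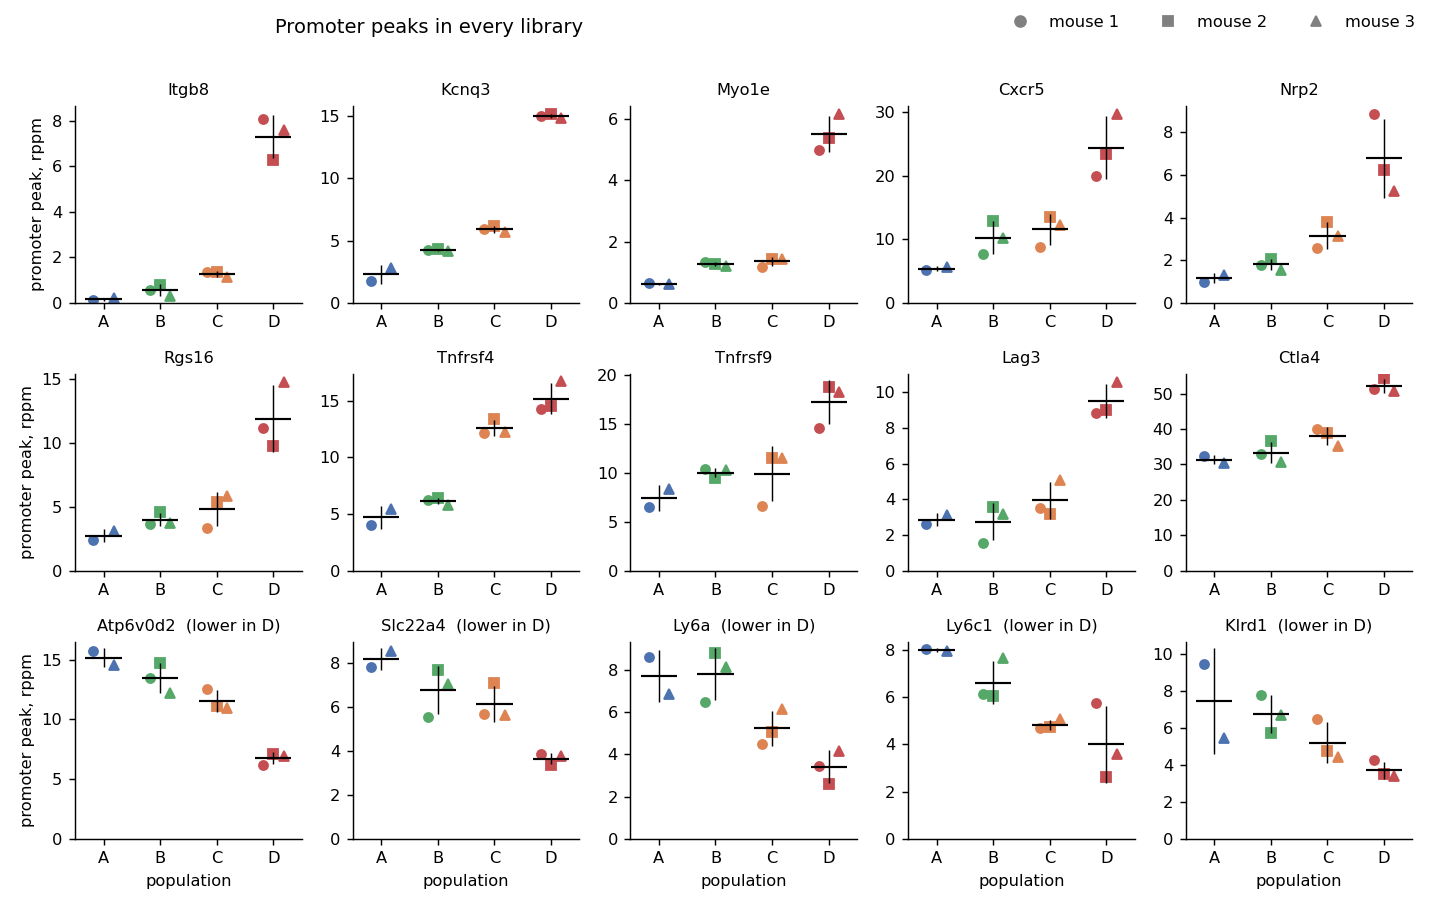
Promoter peaks in rppm by population (A, B, C, D), 1 point per library with the mouse as its symbol, bars for the mean and vertical lines for the SD. In the upper rows the D libraries stand above the A libraries in all 10 genes, Tnfrsf4 divides between B and C, and in the 5 genes of the lowest row the D libraries lie below the A libraries.

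The lower promoters changed less. Atp6v0d2, a subunit of the vacuolar proton pump, had 15.8 and 14.6 rppm in A, 13.5, 14.8 and 12.2 in B, 12.6, 11.1 and 10.9 in C, and 6.16, 7.13 and 6.92 in D (log2 change from A to D -1.07 ± 0.14, adjusted p = 0.000143). The D libraries were below all others, and the means fell at each step. Ly6a (Sca-1), of the Ly6 family of membrane-anchored proteins, had 3.46, 2.62 and 4.18 rppm in D and 8.59 and 6.85 rppm in A (log2 -0.99 ± 0.20, adjusted p = 0.00436). Ly6c1, which encodes one of the Ly6C proteins by which the cells were sorted, had 5.78, 2.62 and 3.61 rppm in D and 8.05 and 7.95 rppm in A (log2 -0.90 ± 0.22, adjusted p = 0.0156). Its log2 steps were -0.25 from A to B, -0.38 from B to C and -0.27 from C to D. The gate used this protein, so the fall is not independent of the sort. D and A also differ in reporter level, and the part of each was not tested. Gramd3 was lower at both of its promoter peaks, of which the stronger averaged 28.8 ± 4.3 rppm in D and 55.4 ± 1.7 rppm in A and the weaker 1.67 rppm in D and 4.35 rppm in A. Slc22a4, a transporter of ergothioneine, averaged 3.66 ± 0.27 rppm in D and 8.19 ± 0.51 rppm in A. Gcat, an enzyme of threonine breakdown, averaged 4.73 ± 1.22 rppm in D and 9.94 ± 0.25 rppm in A, and Slc16a5, of the monocarboxylate transporter family, averaged 5.71 ± 0.66 rppm in D and 10.4 ± 0.5 rppm in A. Gbp11, of the interferon-induced guanylate-binding family, averaged 4.55 ± 0.45 rppm in D and 9.62 ± 2.08 rppm in A. Klrd1 (CD94), a receptor of natural killer and memory CD8 T cells, had 4.24, 3.49 and 3.39 rppm in D and 9.46 and 5.44 rppm in A. Tmem37, Tnfrsf19, Atp8b4, Epb41, Pcdh17 and Rnf32 had log2 changes between -1.02 and -0.72. Of the 15 named lower promoters, Gramd3 alone kept its call under every alternative run, and the other 14 lost it in at least 1. In D against C, Irgc1 (4.24, 3.93 and 4.99 rppm in D and 9.81, 9.26 and 9.02 rppm in C) and Shox2 (3.93 ± 1.32 rppm in D and 6.99 ± 0.31 rppm in C) were also lower. Irgc1 lost that call under 1 alternative and Shox2 under 14, edgeR and DESeq2 among them.

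Genes induced by T cell receptor signalling did not move together at their promoters. Of 23 promoter peaks of 20 such genes 5 were higher in D, 2 were lower and 16 were not called. The share called was 30.4%, against 3.59% of promoter peaks and 12.4% of all peaks, and the median log2 change was 0.079. The lists here and below were chosen with earlier results of these data known, so their shares only describe the list members. Higher were Tnfrsf4, Tnfrsf9, the chemokine gene Xcl1 (3.95 ± 0.11 rppm in D and 1.15 ± 0.06 rppm in A), the transcription factor gene Bhlhe40 (26.9 ± 1.3 rppm in D and 15.6 ± 0.2 rppm in A) and Nr4a2, a relative of Nr4a1 (29.2 rppm in D and 17.7 rppm in A; log2 0.69). Lower were Myc, a transcription factor gene of cell growth (38.04 rppm in D and 55.8 rppm in A; log2 -0.54), and Cd69, an early activation antigen that holds cells in tissue (45.2 rppm in D and 58.7 rppm in A; log2 -0.37). Egr1, Egr2 and Egr3, the early growth response factors, had 120, 121 and 29.2 rppm in D and 113, 118 and 26.2 rppm in A, and none was called.

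Negative regulators of activation gave 4 higher and 1 lower of 23 promoter peaks of 22 genes (21.7% called, against the same 3.59% and 12.4%), with a median log2 change of 0.025. The inhibitory receptor Ctla4 had 32.3 and 30.4 rppm in A, 32.9, 36.5 and 30.6 in B, 40.03, 38.9 and 35.3 in C, and 51.2, 54.4 and 50.8 in D (log2 change from A to D 0.72 ± 0.11, adjusted p = 0.000498). Lag3, an inhibitory receptor that binds MHC class II, averaged 9.48 ± 0.95 rppm in D and 2.87 ± 0.36 rppm in A. Nt5e (CD73), which makes adenosine outside the cell, had 20.0, 21.1 and 20.3 rppm in D and 11.9 and 11.8 rppm in A, and its C libraries (17.9, 18.7 and 17.7 rppm) lay above its B libraries (13.7, 14.7 and 11.9 rppm). Ndrg1, a gene tied to T cell anergy, averaged 27.1 rppm in A, 28.9 in B, 38.7 in C and 39.3 in D. Socs3, a brake on cytokine receptors, was lower (50.04 rppm in D and 77.8 rppm in A; log2 -0.65). The promoters of Cd5, Ptpn22, Tigit and Btla were not called. Cd5, whose surface level follows T cell receptor signalling, had 31.1 rppm in D and 23.2 rppm in A (chr19:10738610-10739263). In limma it missed the threshold without a block (adjusted p = 0.0509) and passed it with the mouse as a block (adjusted p = 0.00689). A nearby promoter peak that starts at chr19:10740457, assigned to A430093F15Rik, was called higher in D (log2 0.58).

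Of 11 promoter peaks of genes prominent in regulatory T cells 3 were higher (Itgb8, Ctla4 and Tnfrsf9) and none lower, and the median log2 change was 0.17. Ctla4 and Tnfrsf9 were already counted in the lists above. The share called was 27.3% here, 20% for follicular helper genes, 22.2% for thymocyte and recent emigrant genes and 7.41% for core T cell genes. Over all promoter peaks it was 3.59%, and over all peaks 12.4%. Their summed level ran from 257 to 299 rppm in D and from 224 to 229 rppm in A. Foxp3, the defining factor, had no promoter peak, and the sort removed cells with the Foxp3 reporter; the part of such cells in these values was not tested. Of 5 peaks of follicular helper genes Cxcr5 alone was higher, and Bcl6, Icos, Maf and Tox were not called. Of 9 peaks of thymocyte and recent emigrant genes 2 were higher, Cd24a (17.2 ± 3.9 rppm in D and 6.59 ± 0.21 rppm in A) and Myb (44.7 ± 6.2 rppm in D and 29.8 ± 3.4 rppm in A; adjusted p = 0.0468, lost under 14 alternatives). Of 27 peaks of core T cell genes 2 were higher, at Lef1 and Tcf12, whose products are DNA-binding factors of T cell development. Each of those 2 genes has another promoter peak that was not called. At Tcf12 the called peak had 13.5 ± 1.3 rppm in D and 7.54 ± 0.56 rppm in A, and the other had 56.2 rppm in D and 60.5 rppm in A.

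No promoter peak was called among 17 of naive homing and quiescence genes, 21 of type I interferon response genes, 10 of effector and memory genes, 51 of ribosomal protein genes, 42 of respiratory chain genes, 24 of proteasome genes and 26 of replication and cell cycle genes. Their median log2 changes ran from -0.12 to -0.05. Ccr7, the lymph node homing receptor, had 70.8 rppm in D and 74.2 rppm in A at its stronger promoter peak. With the mouse as a block 7 ribosomal, 6 respiratory chain, 4 proteasome and 3 cell cycle promoter peaks were called lower, where that model called 8.17% of promoter peaks and 8.79% of all peaks lower. It also called Rsad2 of the interferon list and Il18r1 of the effector list lower, and Il12rb2 of the effector list and 1 peak of the cell cycle gene Ccnd3 higher.

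Few genes that mark other cell types had a promoter peak. Of 18 B cell genes 5 had a promoter peak, and of their 6 peaks Cd74 (11.0 ± 1.4 rppm in D and 6.01 ± 0.04 rppm in A) and H2-Eb1 (14.4 ± 1.4 rppm in D and 9.49 ± 1.02 rppm in A), both of the MHC class II pathway, were higher. The 6 peaks summed to between 54.3 and 63.9 rppm in D and between 43.5 and 48.6 rppm in A. Of 24 myeloid and dendritic genes 6 had a promoter peak, and Cebpa was higher (7.03 ± 0.76 rppm in D and 3.50 ± 0.03 rppm in A), with the sum between 58.9 and 71.4 rppm in D and between 56.3 and 63.1 rppm in A. Of 19 CD8 T and NK genes 7 had one, and Klrd1 was lower, with the sum between 107 and 148 rppm in D and between 130 and 141 rppm in A. The share of peaks called was 33.3% for B cell genes, 16.7% for myeloid and dendritic genes and 14.3% for CD8 T and NK genes. Over all promoter peaks it was 3.59%, and over all peaks 12.4%. The part of such cells in the other results was not tested. Of all promoters called in these lists, those of Itgb8, Tnfrsf4 and Cxcr5 were called without mouse 3 and the others were not.

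In genes with several promoters the balance between them rarely changed. For 279 genes with 2 or more promoter peaks the log2 ratio of the strongest to the second was compared between D and A, and 6 were called (2.15%), all in favour of the second promoter in D. The blocked model called 15, of which 11 favoured the second promoter and 4 the strongest. With a pseudocount of 5, without D replicate 2 and without D replicate 3, 1 gene was called in favour of the strongest in each case. Without A replicate 3 there were 2 calls. Without mouse 3 limma called none, with 14 at an unadjusted p below 0.05. Lims1, an adaptor of integrin adhesions, had the smallest p. Its upstream peak (chr10:58322910-58324043), over the window with 28 CG, had 68.5, 53.1 and 55.3 rppm in D and 57.2 and 55.6 rppm in A. Its downstream peak (chr10:58351449-58352125), over the window with 1 CG and 27406 bases away, had 19.6, 16.4 and 14.4 rppm in D and 4.24 and 2.92 rppm in A. The log2 ratio of upstream to downstream differed by -1.91 ± 0.19 between D and A (adjusted p = 0.000194 over the 279 genes). In Celf5, an RNA-binding protein gene, in Acot7, an acyl-CoA thioesterase gene, and in Pdlim2, the gene of a PDZ and LIM domain protein that limits NF-kB, the second promoter rose (log2 0.95, 0.83 and 0.94) and the stronger one was not called. Fgf13 differed in that its stronger promoter fell (log2 -0.54) and the second, 431252 bases away, was not called. In Sh2d3c neither promoter was called by itself, with log2 changes of -0.41 and 0.45. The 2 Pdlim2 peaks are 596 bases apart, so they may be parts of a single promoter.

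**Figure D5:**
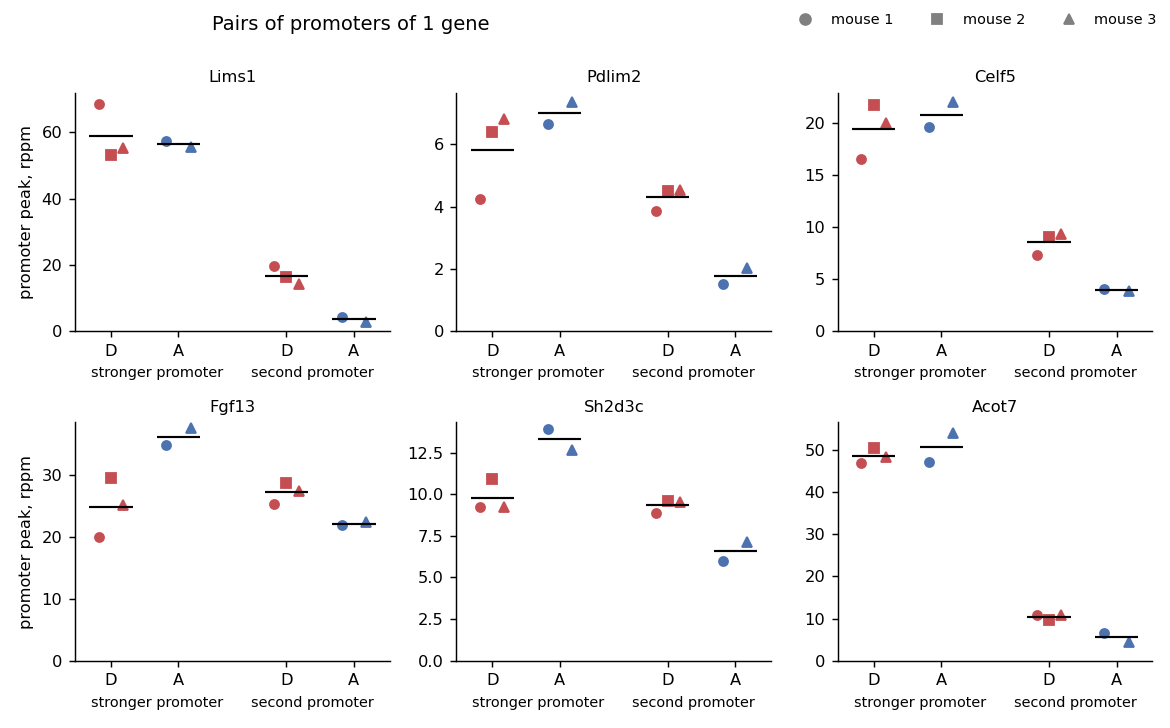
Levels in rppm of the stronger (left pair) and the second promoter peak (right pair) in D and A for the 6 genes whose ratio was called, 1 point per library with the mouse as its symbol and a bar for the mean. In Lims1 the stronger promoter overlaps between D and A, and the second one does not.

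Genes with a changed promoter often had a distal peak called in the same direction. Of 127 genes with a higher promoter and at least 1 peak over 1000 bases from the start, 71 (55.9%) had a distal peak called higher, against 21.7% of the 4165 genes that have both kinds. Of 44 genes with a lower promoter and a distal peak, 17 (38.6%) had a distal peak called lower, against 12.1%. Read the other way, of 905 genes with a higher distal peak 71 (7.85%) had a higher promoter, against 1.87% of the 2893 genes whose distal peaks were not called. Most genes with a higher distal peak therefore had a promoter that was not called higher. All these calls come from the same libraries, and the difference between the shares was not tested.

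For single genes the sum of the distal peaks was set against the sum of the promoter peaks. The difference changed between D and A in 303 of 4165 genes (7.27%), in 239 with the distal side higher and in 64 with the promoter side higher. The blocked model called 586. Without A replicate 1, without A replicate 3 and without mouse 3 the count was 128, 87 and 12. In Fam193a, Scyl2, Oma1, Gm9855 and Ech1 a single distal peak opened while the promoter was not called. Oma1 encodes a protease of the inner mitochondrial membrane. In Scyl2, a gene of vesicle traffic, the distal peak had 11.6 ± 1.3 rppm in D and 0.419 ± 0.023 rppm in A, and the promoter had 53.3 ± 7.4 rppm in D and 53.8 ± 0.6 rppm in A. The promoter side gained over the distal side in Tnfrsf4, whose distal peak had 19.5 ± 2.1 rppm in D and 26.3 ± 1.8 rppm in A while its promoter rose, and in Itgb8, Kcnq3, 1700042O10Rik and Gm30214. In Itgb8 and in Gm30214 1 distal peak was also called higher. Gm30214 has 103 distal peaks, summed to 899 ± 43 rppm in D and 911 ± 128 rppm in A, and its promoter peak averaged 16.3 ± 0.7 rppm in D and 1.80 ± 0.69 rppm in A. Distal peaks were given to a gene by nearness alone.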

How the data were processed

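ATAC-seq gave 11 libraries (tagmentation for 1 h at 37 °C). The deposited table holds RPM (rppm) at 45508 peaks on mm10. Bowtie and MACS2 are named without versions, per the submitters' processing notes. Read filters, any shift for Tn5, peak merging and the denominator are not given in the sources used here. Every deposited value was a whole multiple of 1 read (100% within 6e-04 rppm), so reads, possibly with duplicates, were recovered. In D replicates 2 and 3, C replicate 3 and A replicate 3 the size of 1 read was fitted over all values and is less directly read off the lowest ones.

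The main test, checked on simulated data, was limma 3.58.1 (R 4.3.3), with log2(rppm + 1) of all libraries, a variance trend, no mouse term and Benjamini-Hochberg adjustment over all peaks. Labels give the mouse of each library. Deviations from population means correlated at 0.159 to 0.736 (median 0.487) within mice and at a median of -0.283 between mice. Alternatives were the mouse as a block, edgeR 4.0.16 (311 promoter peaks in D against A), DESeq2 1.42.0 (245), other pseudocounts, filters, scalings and left-out libraries. Of all peaks edgeR called 14.1% and DESeq2 11.5%.

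Named were the 15 largest called changes each way in D against A and 5 per step (no overlap of libraries, 5 rppm or more in the higher population, gene models with Gm, Rik, Mir, Snor or LOC names left out), sort genes, up to 3 called peaks per list, the 5 highest peaks and the leading genes of both gene-level tests. Further list members were named after their values were seen. The members and lists were chosen with earlier results of these data known. Some named promoters are not reported here.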

Additional observations from a re-analysis of the deposited data

How the results depend on the processing

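Shares over all peaks are given first. D against A called 12.4% of all peaks in the main fit, 21.2% with the mouse as a block and 23.5% with edgeR and the block. It called 21.4% with the block and median-of-ratios scaling, 8.78% with a minimum mean of 5 rppm and 8.27% with only D and A. Any annotation within 1000 bases defines a larger set of 12206 peaks, of which 3.64% were called, against 3.59% of promoter peaks. Called promoter peaks in D against A numbered 261. They numbered 905 with the mouse as a block, 859 with edgeR and the block, 831 with the block and median-of-ratios scaling, 160 with a minimum mean of 5 rppm, 150 with only the libraries of D and A, 444 with any annotation within 1000 bases, 110 with thinned reads and 31 without mouse 3. Leaving out single libraries gave 118 to 299. In D against C, called promoter peaks numbered 85, and 215 with the block, 340 with edgeR and the block, 225 with the block and median-of-ratios scaling, 46 with the minimum mean, 40 with only D and C, 133 with any annotation, 24 with thinned reads and 7 without mouse 3; single libraries left out gave 51 to 105. B against A gave 0, and 1 with the block, 2 with edgeR and the block and 1 with DESeq2; without single libraries it gave 0 to 0. C against B gave 0, and 4 with the block, 4 with edgeR, 35 with edgeR and the block and 4 with DESeq2; without single libraries it gave 0 to 2, the 2 without D replicate 1. The ratio of promoters of 1 gene was called in 6 genes, in 15 with the block, in 2 to 7 without single libraries and in 0 without mouse 3. Distal minus promoter was called in 303 genes, in 586 with the block, in 87 to 340 without single libraries and in 12 without mouse 3. The slope of the promoter share was -0.22 points per population, -0.30 to -0.11 without single libraries, and turned to 0.016 without mouse 3. D against C called 6% of all peaks in the main fit, 11.4% with the block, 16.1% with edgeR and the block and 11.6% with the block and scaling. It called 3.26% with the minimum mean, 3.13% with only D and C and 2.07% with thinned reads. Of the 12206 peaks with any annotation it called 1.09%, against 1.17% of promoter peaks. With edgeR and the block, B against A called 0.237% of all peaks and C against B 1.73%. Where libraries or peaks were left out, fewer entered the test. The cause of the fall with thinned reads and of the rise with the block was not tested. No sign of a called named peak turned in any alternative run, and of the 51 named peaks called in D against A 33 were not called without mouse 3, 20 without A replicate 1, 15 without A replicate 3 and 19 with thinned reads. Thinning, mouse 3 and the block without mouse 3 or with rescaling were alternatives chosen after seeing the data. The shallowest library, D replicate 1, limits what weak promoters can show.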
